A study of Mus musculus with 4 samples.

Results

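Scx, Mkx, Tnmd, Eya1, Tppp3 and Gli1 are 6 genes used to mark or regulate the tendon cell lineage, and their signal was described in whole tendon of adult mice. Members were taken by gene symbol from the platform annotation of the deposited table, keeping probe sets with exactly 1 symbol. Each of the 6 genes had 1 such probe set, so 6 of the 22180 genes and 6 of the 23521 probe sets tested are described. The tissue was Achilles and plantaris tendon of untreated wild-type mice, all 4 months old and of the inbred strain C57Bl/6, with 2 arrays from males and 2 from females. The labels call the cells tenocytes, the fibroblasts of tendon, but the tendons were homogenized whole and the RNA came from all cells in them. Each sample is labelled with 3 RNA wells, without saying whether wells were pooled, and whether the 2 samples of a sex are different animals is not stated. P-values therefore reflect sample-to-sample spread alone, possibly technical in origin, and the number of arrays limits the precision. In whole tissue, fewer cells of a type and less RNA per cell cannot be told apart.

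Tendon cells arise from embryonic progenitors that switch on scleraxis (Scx), a basic helix-loop-helix transcription factor that pairs with E proteins and drives tendon genes. Mohawk (Mkx), a homeobox factor, acts later to maintain the collagen programme, and tenomodulin (Tnmd), a membrane glycoprotein, marks mature tendon cells. Eya1 encodes a transcriptional coactivator and phosphatase that works with homeobox factors such as Six2 and is found in limb connective tissue and in muscle. Tppp3, a tubulin-binding protein, marks the tendon sheath and its progenitors, and Gli1, both a transcription factor and a target of Hedgehog signalling, marks progenitors at the tendon insertion.

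The arrays were first checked against their labels and their tissue. Xist, the RNA of the silenced X chromosome, was at 2.47 and 1.98 in the males and at 7.34 and 8.04 in the females, and Y-linked Eif2s3y was at 4.46 and 4.96 in males and 2.86 and 1.65 in females. Tendon matrix genes had medians over 18 genes between 6.11 and 6.998 per array, and 17 of the 18 lay above the median of their array on all 4 arrays. Muscle was present too: the medians of 11 fast fibre genes ran from 8.93 to 10.01. The array of female 2 stood apart in macrophage markers, at a median of 4.96 against 3.12 to 3.36 on the other arrays. Male 1 stood apart in slow fibre genes, at a median of 7.66 against 8.67 to 9.33. Values without female 2 are given where they differ most. Of the 6 genes under study, 5 lay above the array median on all 4 arrays, Eya1 and Gli1 among them, and Mkx on 3. By the mean over the 4 arrays, 56% of all probe sets lay above every array median. The count for the 6 genes is a description and was not used to check the tissue.

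The first question was which of the genes were expressed in adult tendon and which lay near the array median. Tppp3, Tnmd and Eya1 stood well above the median of every array, Scx stood moderately above it, and Mkx and Gli1 lay closest to it. Values are log2 RMA values as deposited. The medians over all rows ran from 2.27 to 2.30. A second yardstick was 1400 probe sets of olfactory and vomeronasal receptors, genes of sensory neurons in the nose, whose 95th percentile ran from 2.74 to 2.90. Of all probe sets tested, 31.3% lay above that percentile on all 4 arrays. The mean of each of the 6 genes lay above the medians of all arrays, as did that of 56% of all probe sets. Probe sets differ in brightness, so each gene is set against its array and the genes are not ranked against each other.

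**Figure D1:**
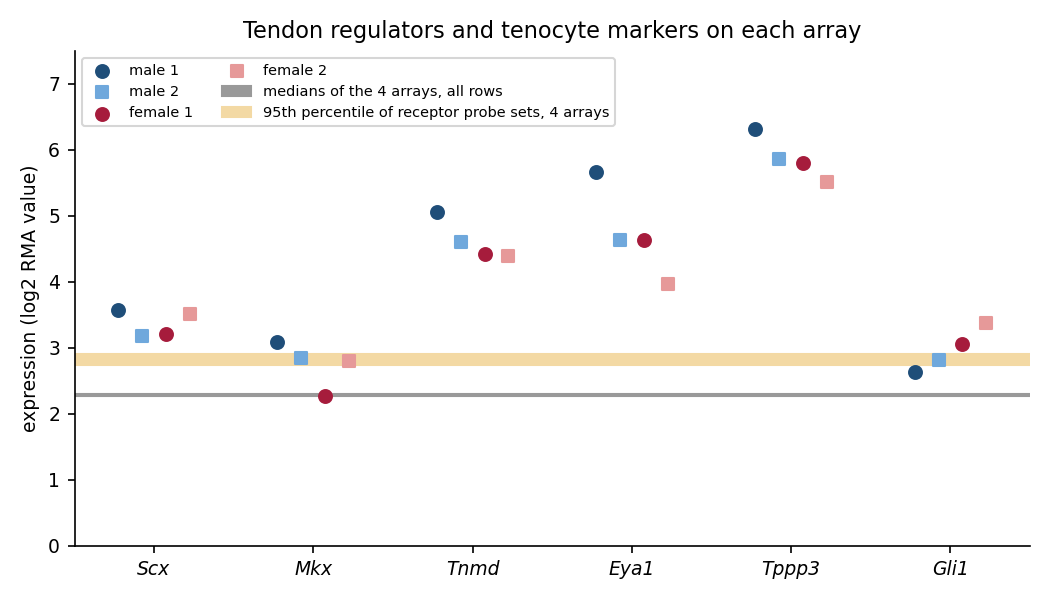
Log2 RMA value of each of the 6 genes on each array; the grey band spans the medians of the 4 arrays and the yellow band the 95th percentiles of the receptor probe sets. Tppp3, Tnmd, Eya1 and Scx lie above both bands on all 4 arrays, while Mkx and Gli1 lie above the yellow level of their own array on 2 arrays each.

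Among the markers of differentiated and sheath cells, Tppp3 was at 6.31 and 5.86 in males 1 and 2 and at 5.80 and 5.51 in females 1 and 2. It lay 3.58 ± 0.32 (SD, n = 4 arrays) above the array median, and between 92.1% and 95.2% of probe sets were lower. No more than 0.286% of receptor probe sets reached it on any array. Tnmd was at 5.06 and 4.60 in males and at 4.42 and 4.39 in females. Tnmd stood 2.33 ± 0.29 (SD, n = 4) above the median and exceeded 83.8% to 89.4% of probe sets. Both markers thus gave clear signal on all 4 arrays, with their smallest gaps to the receptors' 95th percentile at 2.78 for Tppp3 and 1.65 for Tnmd.

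The relatives of these markers by sequence family gave values at or below the array medians on some or all arrays. Cnmd, the cartilage relative of Tnmd, was at 1.63 and 1.42 in males and at 1.24 and 1.35 in females, below the median of each array. Tppp, a relative of Tppp3 known from oligodendrocytes, was at 2.20 and 2.80 in males and at 2.84 and 2.32 in females. It lay below the array median only in male 1. Tppp2 was between 2.17 and 3.11 and lay below the array median only in female 1.

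Eya1 was the most variable of the 6 genes. It was at 5.67 in male 1, 4.63 in male 2, 4.64 in female 1 and 3.97 in female 2, a range of 1.70 on the log2 scale, or 3.25-fold. Male 2 and female 1 were nearly equal, and the highest and lowest arrays were of different sexes. That range was wider than the range of 94.6% of the 13176 probe sets whose mean lay above every array median; the median range there was 0.61. Eya1 stood 2.44 ± 0.69 (SD, n = 4) above the array median and exceeded 79.5% of probe sets on its lowest array.

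Scx was the steadiest. It was at 3.58 in male 1, 3.18 in male 2, 3.20 in female 1 and 3.51 in female 2, a range of 0.39. Both female values lay between the male values, so the groups overlapped fully. Scx lay 1.09 ± 0.20 (SD, n = 4) above the array median, 2.12-fold, and exceeded 68.8% to 76.4% of probe sets. Between 1.43% and 3.36% of receptor probe sets reached it, and it lay above their 95th percentile on all 4 arrays by at least 0.33.

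Mkx was at 3.09 in male 1, 2.84 in male 2, 2.26 in female 1 and 2.81 in female 2. On female 1 it sat at the array median, 2.27 on that array, and 43.6% of probe sets were lower. Over the 4 arrays it lay 0.47 ± 0.33 (SD, n = 4) above the median. Mkx passed the receptors' 95th percentile in male 1 and female 2 and not in male 2, where it missed by 0.01, or in female 1, where 10.6% of receptor probe sets reached it. Signal of Mkx was therefore not told from that of receptor genes on every array.

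Gli1 was at 2.63 in male 1, 2.81 in male 2, 3.05 in female 1 and 3.37 in female 2. It lay 0.68 ± 0.33 (SD, n = 4) above the array median. Both female arrays passed the receptors' 95th percentile and neither male array did; male 2 missed it by 0.05. The share of receptor probe sets that reached Gli1 was 8% and 5.36% in the males and 3.29% and 2.14% in the females.

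**Figure D2:**
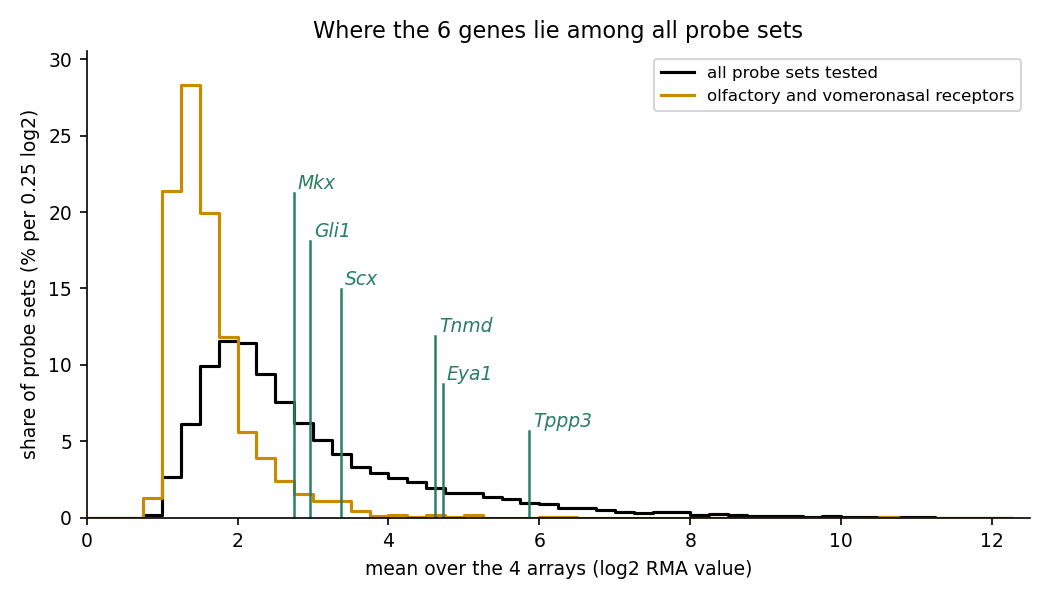
Distribution of the mean over the 4 arrays for all 23521 probe sets tested (black) and for 1400 receptor probe sets (orange), as the share per bin of log2 RMA value; green lines mark the 6 genes and their heights carry no value. Mkx, Gli1 and Scx lie at 2.75, 2.97 and 3.37, where the receptor distribution thins out, and Tnmd, Eya1 and Tppp3 at 4.62, 4.73 and 5.87.

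The second question was whether the genes differed between females and males. Mkx, Tnmd, Eya1 and Tppp3 had lower means in females, Gli1 had a higher mean, and Scx had nearly equal means. None of the 6 passed the test: limma called 0 after Benjamini-Hochberg adjustment over all probe sets, where the share called among all 23521 was also 0%, and 0 of the 6 had an unadjusted p under 0.05, against 4.49% of all probe sets. Xist, 5.47 higher in females, had a limma adjusted p of 0.772 and was not called either, so with these arrays not passing the adjusted threshold says little about whether a gene differs. Differences are female minus male on the log2 scale with limma's standard error and 95% interval.

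Scx differed by -0.02 (SE 0.22, 95% interval -0.61 to 0.56, limma adjusted p = 0.999), with a male mean of 3.38 ± 0.28 (SD, n = 2) and a female mean of 3.36 ± 0.22 (SD, n = 2). As a ratio of females to males this interval spans 0.657 to 1.48, whereas that of Eya1 spans 0.246 to 1.26. The sign of the Scx difference was not stable: centring on array medians gave 0.0053, leaving out male 1 gave 0.17 and leaving out female 1 gave 0.13.

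Tnmd differed by -0.43 (SE 0.21, 95% interval -0.98 to 0.13, limma adjusted p = 0.969). Its male mean was 4.83 ± 0.32 (SD, n = 2) and its female mean 4.40 ± 0.02 (SD, n = 2). Both males lay above both females, but the gap between the 2 males, 0.45, was wider than the difference between the sexes. The difference was -0.20 without male 1 and -0.65 without male 2.

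Tppp3 had the same difference within rounding, -0.43 (SE 0.23, 95% interval -1.04 to 0.18, limma adjusted p = 0.969), from 6.08 ± 0.32 (SD, n = 2) to 5.65 ± 0.20 (SD, n = 2). Again the males did not overlap the females and were themselves 0.45 apart. The difference was -0.20 without male 1, -0.29 without female 2 and -0.65 without male 2.

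Mkx differed by -0.43 (SE 0.24, 95% interval -1.08 to 0.22, limma adjusted p = 0.969), from 2.97 ± 0.17 (SD, n = 2) to 2.54 ± 0.38 (SD, n = 2). The lowest male and the highest female were 2.84 and 2.81, so the groups stood apart by a margin far below their spread. Without female 1, the array on which Mkx sat at the median, the difference was -0.16, and without female 2 it was -0.70.

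Eya1 differed by -0.84 (SE 0.44, 95% interval -2.02 to 0.33, limma adjusted p = 0.969), from 5.15 ± 0.74 (SD, n = 2) to 4.30 ± 0.47 (SD, n = 2), and the groups overlapped. The gap between the 2 males, 1.04, was wider than the difference. Without male 1 it was -0.32, without female 2 it was -0.51 and without male 2 it was -1.37.

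Gli1 differed by 0.49 (SE 0.19, 95% interval -0.01 to 0.99, limma adjusted p = 0.969), with a male mean of 2.72 ± 0.13 (SD, n = 2) and a female mean of 3.21 ± 0.22 (SD, n = 2). Both females lay above both males, and the gaps within a sex, 0.18 and 0.32, were smaller than the difference. Because the sexes did not overlap, leaving out an array could not turn its sign. The difference then lay between 0.33 without female 2 and 0.65 without female 1. The male values were those that the receptor probe sets reached most often, so the size of this difference was measured close to background.

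For 4 of the 6 genes the sexes did not overlap, 3 lower and 1 higher in females. Over all probe sets tested, 33.3% did not overlap, 17.5% lower in females and 15.8% higher. A lower female mean was seen in 5 of the 6 genes, with a median difference of -0.43, beside 51.2% of all probe sets and a median of -0.01 over all genes. Scx was counted among these 5 at -0.02 (SE 0.22), a difference whose sign was not stable. These shares describe 6 genes and are not a test of the group.

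**Figure D3:**
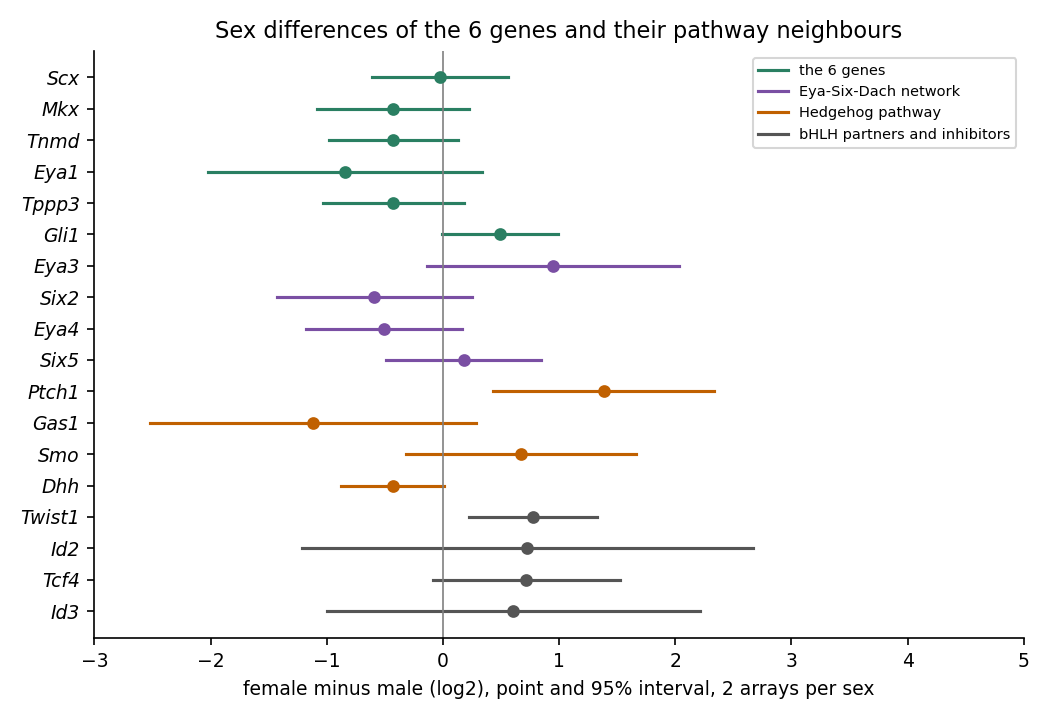
Female minus male difference on the log2 scale with its 95% interval from limma, 2 arrays per sex, for the 6 genes and for genes of 3 lists around them. The intervals of all 6 genes include 0; that of Gli1 reaches just below it, and that of Eya1 is the widest of the 6.

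The genes were next compared by how they moved from array to array. Male 1 gave the highest value for 5 of the 6 genes, all but Gli1, which was lowest there; over all probe sets 28.1% were highest on that array. Tnmd, Eya1 and Tppp3 were also lowest on female 2, and 9.94% of all probe sets had both features. With each profile centred on its own mean over the 4 arrays, Tnmd and Tppp3 differed by a root mean square of 0.09 on the log2 scale, the closest pair among the 6. Eya1 and Gli1 were the farthest pair, at 0.87.

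Markers of other cells moved across the same arrays. All 11 fast fibre genes lay above the median of each array, and their summed level, on the log2 scale, was 13.45 and 13.33 in males and 13.29 and 12.66 in females. Of these genes 9 of 11 were lowest in female 2, the array on which Eya1 was lowest, beside 25.9% of all probe sets. The size of the drop varied between genes. Myh4 was at 7.35 there against 10.20 to 10.61 elsewhere, but Tnnt3 was at 10.66 against 10.78 to 10.92. Myh1, at 8.93 in female 2, lay above both males. The part of muscle in the Eya1 values was not tested. Slow fibre genes ran otherwise: their summed level was lowest in male 1, at 10.91, against 11.57 to 12.16 on the other arrays.

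Macrophage and adipocyte markers had their lowest summed level in male 1, where Tnmd and Tppp3 were highest, and their highest in female 2, where both were lowest. The summed level of 8 macrophage markers was 6.93 and 6.97 in males and 6.95 and 8.48 in females, and that of 7 adipocyte markers was 10.19 and 10.67 in males and 10.65 and 10.82 in females. On all 4 arrays, 7 of the 8 and 6 of the 7 lay above the array's median. Adipocyte markers had a median deviation of -1.11 in male 1 and 0.73 in female 2. Their part in the values of the 6 genes was not tested.

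**Figure D4:**
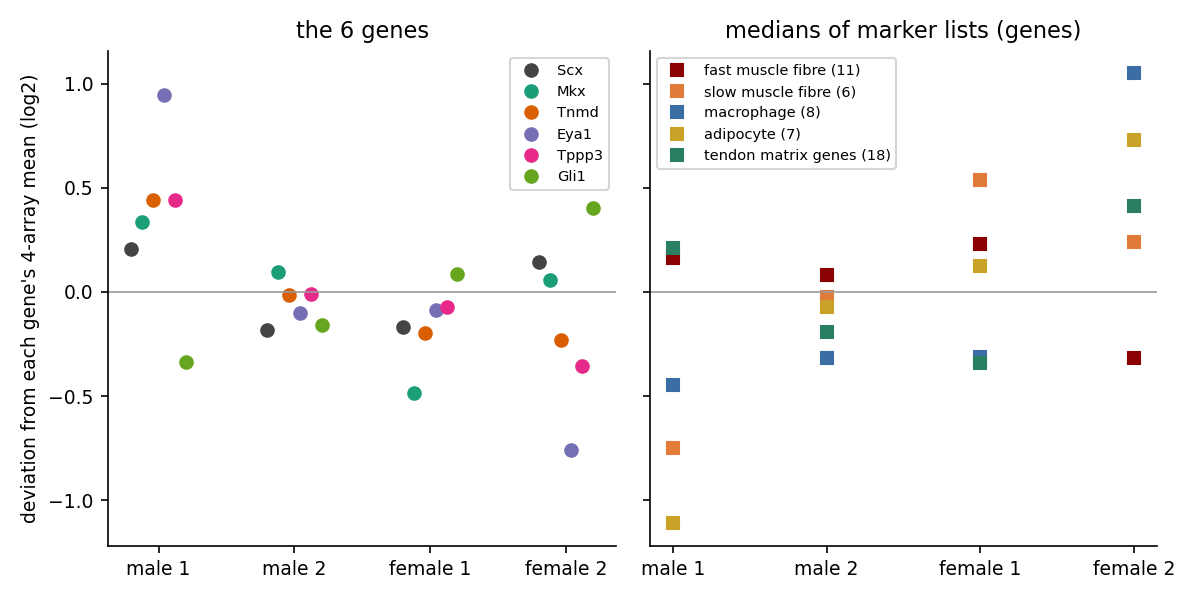
Deviation from the mean over the 4 arrays, on the log2 scale, for each of the 6 genes (left, points offset sideways so that none is hidden) and as the median over the genes of 5 lists (right). In male 1 all of the 6 genes but Gli1 lie above 0 while adipocyte markers lie at -1.11; in female 2 Eya1 lies lowest while macrophage markers lie at 1.05.

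Likeness of pattern was also measured against the 151 other genes of the lists whose mean over the 4 arrays lay above the array medians. The closest to Scx was Tgfb1, a growth factor gene of tendon induction, at a root mean square difference of 0.05 over the 4 arrays. The closest to Mkx was Col1a2, a chain of collagen I, at 0.10. Tnmd lay closest to the Hedgehog ligand gene Dhh at 0.07 and Tppp3 closest to Tnmd. The nearest to Eya1 was Bglap, the osteocalcin gene, at 0.32. Gli1 lay closest to the leptin gene Lep at 0.05, and Lep itself was dim. It ran from 2.25 in male 1, below the median of that array, to 2.92 in female 2. With only 4 arrays many genes match by pattern, and of all 22178 other genes 114 lay as close to Scx as Tgfb1, 83 as close to Mkx as Col1a2, 129 as close to Tnmd as Dhh, 302 as close to Eya1 as Bglap, 132 as close to Tppp3 as Tnmd and 37 as close to Gli1 as Lep.

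Gli1 belongs to the Hedgehog pathway, in which the ligand binds the receptor patched, releases Smo and activates the Gli factors, which in turn switch on Gli1 and Ptch1. Of 13 other pathway genes measured, 6 were higher and 7 lower in females, with a median of -0.03 beside -0.01 for all genes, and 0 passed the limma test; 1 had an unadjusted p under 0.05. That gene was Ptch1, the receptor and target gene, at 2.54 and 2.94 in males and at 3.68 and 4.57 in females. Ptch1 differed by 1.39 (SE 0.36, 95% interval 0.43 to 2.34, limma adjusted p = 0.969), and without each array in turn by 0.94 to 1.83. Both females lay above both males for Ptch1 as for Gli1, and the 4 arrays fell in the same order for both genes, as they did for 2 of the 13 and for 4.61% of all genes.

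The other Gli factors lay near the array medians. Gli2, the main activator, was between 2.32 and 2.75 and differed by 0.11 (SE 0.21), with a negative sign without male 1 (-0.04) or female 2 (-0.06), and Gli3, mostly a repressor, was between 2.18 and 2.31. Hhip, a ligand-trapping inhibitor and a further target gene, was between 1.46 and 1.59, below the median of every array. Its values did not separate by sex.

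The signal transducer Smo was at 2.73 and 3.51 in males and at 4.12 and 3.47 in females, with overlapping groups. The co-receptor gene Gas1 was at 4.51 and 3.73 in males and at 2.36 and 3.64 in females, a difference of -1.12 (SE 0.52) that was -0.48 without female 1, -0.73 without male 1 and -1.76 without female 2. Dhh was at 2.91 and 2.66 in males and at 2.40 and 2.31 in females, close to the array medians. Of 13 pathway genes 10 lay above the array medians. Counts of direction rested on single arrays: 10 of 13 were higher in females without female 1 and 5 of 13 without female 2.

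**Figure D5:**
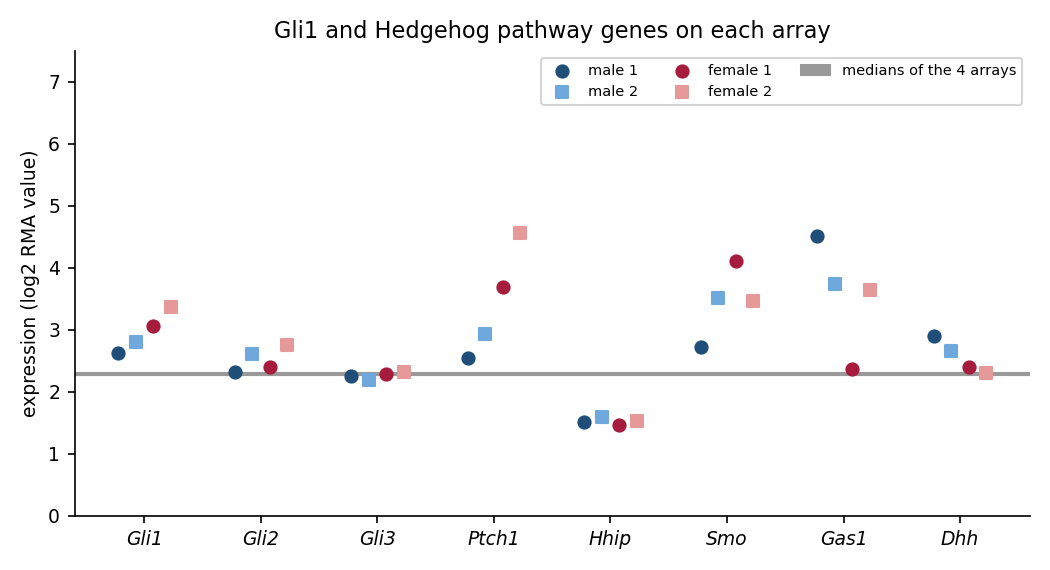
Log2 RMA value of Gli1 and of 7 Hedgehog pathway genes on each array, with the medians of the 4 arrays in grey. Gli1 and Ptch1 are higher in both females than in both males, whereas Gli3 lies at the medians and Hhip below them on every array.

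Eya1 acts in a network with homeobox factors such as Six2 and with Dach cofactors. Of 8 other members measured, 4 were higher and 4 lower in females with a median of -0.05, and 0 passed the test or had an unadjusted p under 0.05. Eya4, a paralog, was at 4.37 in both males and at 4.17 and 3.56 in females, a difference of -0.51 (SE 0.25), and like Eya1 it was lowest in female 2. Eya3 was at 3.05 and 2.74 in males and at 3.30 and 4.39 in females, a difference of 0.95 (SE 0.41), and was highest in female 2. Without female 2 the differences were -0.20 for Eya4 and 0.41 for Eya3. Eya2 was between 2.41 and 2.61, near the array medians. Six2, a factor of tendon and muscle connective tissue, was at 2.68 and 3.30 in males and at 2.68 and 2.12 in females, a difference of -0.59 (SE 0.31) that was -0.31 without female 2 and -0.28 without male 2. Six4, a relative of Six2, was between 2.77 and 3.04.

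Scx acts as a dimer with E proteins and can be blocked by Id proteins. Of 8 such genes and their Twist relatives, 6 were higher and 2 lower in females with a median of 0.53, and 0 passed the test; 1 had an unadjusted p under 0.05. Without female 2 the median was -0.20, with 3 of 8 higher. Twist1, a basic helix-loop-helix factor of mesenchyme, was at 4.89 and 4.53 in males and at 5.35 and 5.62 in females, a difference of 0.78 (SE 0.21, 95% interval 0.23 to 1.33, limma adjusted p = 0.969). The E protein gene Tcf4 was at 4.44 and 5.23 in males and at 5.58 and 5.52 in females, a difference of 0.72 (SE 0.30) that was 0.32 without male 1. The inhibitor genes Id2 and Id3 were highest in female 2, at 5.33 and 7.04, against 3.22 to 4.05 and 5.31 to 5.59 on the other arrays. Their differences, 0.73 (SE 0.72) and 0.61 (SE 0.60), were -0.25 and -0.26 without female 2. Scx itself overlapped fully between the sexes.

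Mkx belongs to the TALE homeobox family, and Gtf2ird1 encodes a factor reported to activate it. Gtf2ird1 was at 2.14 and 2.57 in males and at 2.08 and 2.58 in females, around the array medians. Of 10 genes of the list 4 were higher and 6 lower in females with a median of -0.01, and 0 passed the test or had an unadjusted p under 0.05. By their mean over the 4 arrays, 4 of the 10 lay above the array medians, and 3 did so on each array. Irx3, the gene with the widest difference among those 4, was at 2.94 and 3.41 in males and at 3.04 and 2.92 in females, a difference of -0.19 (SE 0.22); its other probe set differed by -0.18 (SE 0.25). Without male 2 the difference of Irx3 was 0.04.

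Signals that induce Scx and Mkx in the embryo were described as a further list. Of 17 genes of TGF-beta and FGF signalling, 10 were higher and 7 lower in females with a median of 0.01, and 0 passed the test; 3 had an unadjusted p under 0.05. Tgfb2, a ligand of tendon progenitor recruitment, was at 5.81 and 5.65 in males and at 5.02 and 5.09 in females, a difference of -0.67 (SE 0.15, 95% interval -1.08 to -0.27, limma adjusted p = 0.969). Its receptor gene Tgfbr2 was at 3.11 and 3.72 in males and at 3.76 and 5.16 in females, a difference of 1.05 (SE 0.53) that was 0.35 without female 2. Mstn, a TGF-beta family ligand made in muscle, was at 3.50 and 3.68 in males and at 2.69 and 1.75 in females. Smad2, which carries the TGF-beta signal to the nucleus, was at 3.59 and 4.26 in males and at 4.39 and 4.57 in females.

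Among other transcription factors of tendon, Egr1, which responds to load and injury and activates collagen genes, was at 5.90 and 5.06 in males and at 3.47 and 4.34 in females, a difference of -1.58 (SE 0.43, limma adjusted p = 0.969). Egr1 and Eya1 were both highest in male 1, but Egr1 was lowest in female 1. Egr2 was at 3.91 and 3.96 in males and at 3.78 and 3.52 in females. Tbx4, a hindlimb factor, was between 2.92 and 3.41, and Prrx1, a factor of limb mesenchyme, between 6.00 and 6.53. Of 8 genes of this list 4 were higher and 4 lower, with a median of -0.01, and 0 passed; 1 had an unadjusted p under 0.05.

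Tendon matrix genes, several of them known targets of Scx and Mkx, were set beside the 6 genes. Of 18 tendon matrix genes, 12 were higher and 6 lower in females with a median of 0.06, and 0 passed; 2 had an unadjusted p under 0.05. Of these genes 14 of 18 were highest in female 2, where Tnmd and Tppp3 were lowest, beside 24.8% of all probe sets highest there. Without female 2, 6 of 18 were higher and the median was -0.35; without female 1, 18 of 18 were higher and the median was 0.50. Kera, which encodes the proteoglycan keratocan, was at 3.18 and 3.43 in males and at 3.71 and 4.09 in females, a difference of 0.59 (SE 0.21), and Thbs2, a thrombospondin gene, differed by 0.69 (SE 0.25) and by 0.45 without female 2. Thbs4, a tendon thrombospondin gene, was between 7.31 and 7.36 on 3 arrays and at 8.28 in female 2.

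Tppp3 was last set beside other markers of the sheath and of progenitors. Of 8 such genes, 7 were higher and 1 lower in females with a median of 0.73, and 0 passed the test or had an unadjusted p under 0.05. Here too 7 of 8 were highest in female 2, beside 24.8% of all probe sets, and without that array the median was 0.25. Pdgfra, a receptor that marks Tppp3-positive progenitors, was at 4.20 and 3.58 in males and at 4.15 and 5.13 in females, a difference of 0.74 (SE 0.42) that was 0.25 without female 2. Thy1, a surface marker of fibroblasts, was at 4.69 and 4.50 in males and at 4.97 and 5.84 in females, and Pi16, a marker of adventitial fibroblasts, differed by 0.91 (SE 0.45) and by 0.47 without female 2. Tppp3 had its lowest value, 5.51, on the array where these 3 genes were highest.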

How the data were processed

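RNA of combined Achilles and plantaris tendons was isolated with a miRNeasy micro kit, amplified with the NuGEN Ovation PicoSL kit and hybridised to Mouse Gene ST 2.1 arrays, per the labels' protocols. The authors deposited 1 log2 value per probe set and array. Processing with oligo and RMA is named in the submitters' processing notes; tool versions, the summarisation level and the annotation build are not given in the sources used here. That the scale is log2 follows from the range of the values and from RMA. Of 41345 rows, GEO's platform annotation gave exactly 1 symbol to 23521, several to 1814 and none to 16010. No further normalization was applied. Sex was the single term of the model fitted to the 23521 probe sets with limma 3.58.1 in R 4.3.3 (lmFit, eBayes) and adjusted by Benjamini-Hochberg at 0.05. With 2 arrays against 2 the smallest exact permutation p is 0.333. The procedure was also run on simulated data whose spreads were drawn from limma's own fitted prior. That setting favours the procedure, so the run does not show how well it works on these arrays. For genes with several probe sets, lists used the one with the highest mean.

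The genes named were the 6 members and relatives of a member set by name, among them Hhip and Six4. Others came from the 4 genes of each list with the widest difference among those above every array median. Not all of those genes are named, and Lum and Dpp4 are among those left out. Myh1, Myh4, Tnnt3, Tgfb1, Col1a2, Dhh, Lep and Bglap came from the likeness and marker rules. The members and lists were chosen with earlier results of these data known. Replicate numbers are shared by the sexes but were not used to pair the arrays in the main fit. Alternatives were all rows, a robust and trended prior, dim probe sets left out, a repeated quantile normalization, array weights, centring, a replicate block, a threshold of 0.1, 1 or averaged probe sets per gene, and leaving out each array; the last was added for list genes after seeing the data. Plots used matplotlib 3.10.9 in Python 3.11.15.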

Additional observations from a re-analysis of the deposited data

How the results depend on the processing

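No member, no list gene and no probe set was called by limma in the 14 alternative settings; the count of probe sets at an unadjusted p under 0.05 was 1056 as reported and ran from 472 of 11760 among probe sets above the median level to 1870 of 41345 over all rows. Mkx, Tnmd, Eya1, Tppp3 and Gli1 kept their direction in all 14. Their differences could change only with quantile normalization, centring or an array left out, and were the same by construction in the other settings. For Mkx, Tnmd, Tppp3 and Gli1 the sexes did not overlap, so leaving out an array could not turn the sign either. The Scx difference turned positive when centred on array medians (0.0053), without male 1 (0.17) and without female 1 (0.13), and ranged from -0.22 to 0.17 over the arrays left out; the cause was not tested. Levels above the array median moved by less than the spread between replicates in the 7 alternatives run for them. Averaging probe sets changed nothing by construction, as each of the genes had 1 probe set. Leaving out an array moves a mean over arrays by less than that array's own deviation, so those settings could hardly show a change. With the median taken over single-symbol probe sets Mkx lay 0.30 and Scx 0.91 above it. With replicate number as a block the differences were the same by construction and Gli1, at 0.49, had a limma adjusted p of 0.993; over all 14 settings its adjusted p ran from 0.788 to 0.999. Deviations from the sex means of same-numbered arrays correlated at -0.06 over probe sets, so no pairing was used. Leaving out an array leaves a lone array of one sex, which is assumed to vary like the others.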
